A study of Mus musculus with 4 samples.

Results

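Insulin signalling genes carry the signal of insulin from its receptor at the cell surface to glucose uptake, glycogen and lipid synthesis and the control of transcription. They were examined in aortas of adult male C57BL/6J mice, whose RNA was pooled, after rosiglitazone, a thiazolidinedione that activates the nuclear receptor PPARγ and is used as an insulin-sensitising drug, at 25 mg/kg per day for 21 days, or vehicle for 21 days. There were 2 arrays per group, rosiglitazone arrays 1 and 2 and vehicle arrays 3 and 4, and the labels name no difference between the groups other than the drug. The labels do not say how many mice were pooled or whether both arrays of 1 group share a pool, so the p-values speak only of the spread among these 4 arrays, which may be technical. The members were the 9 genes Insr, Irs1, Irs2, Pik3r1, Akt1, Akt2, Foxo1, Pde3b and Socs3, and every probe set whose single symbol in the platform's probe table was one of them was taken, older names included. A probe set is the group of short oligonucleotides on an Affymetrix array that reports 1 transcript. The rule found 8 probe sets for 7 of the 9 genes, 2 of them for Socs3, among 12422 probe sets and 8251 named genes. No probe set was named for Foxo1 or Pde3b, so neither has intensities here, though Foxo1 entered the promoter search below.

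In the insulin pathway the receptor, encoded by Insr, phosphorylates the adaptor proteins encoded by Irs1 and Irs2. The phosphorylated adaptors bind the regulatory subunit of phosphoinositide 3-kinase, encoded by Pik3r1, and the lipid that this kinase makes leads to activation of the AKT kinases. AKT in turn drives glucose transporter traffic, glycogen and protein synthesis and keeps FOXO transcription factors out of the nucleus, while Socs3, a suppressor that cytokines induce, dampens both cytokine receptors and the insulin receptor with its adaptors. In the vessel wall, insulin acts on endothelium and smooth muscle, and in the fat around the vessel it acts on adipocytes.

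Among the insulin signalling genes, Akt2 had the smallest p of those tested and lay higher in rosiglitazone aortas, by 1.80-fold, while a Socs3 probe set lay lower, at 0.352 of the vehicle level. Neither passed the adjustment over all probe sets, and no other member separated the groups. The 4 probe sets bright enough to be tested were those of Irs2, Akt1 and Akt2 and 1 of Socs3. Those of Insr, Irs1 and Pik3r1 and the second one of Socs3 lay below the intensity filter, a mean of 414 over the 4 arrays on the log scale, and are given as values without a test. The tested Socs3 probe set passed this filter only through its vehicle arrays. Among the 4 tested, 0 passed an adjusted p of 0.05 in limma, where 0.364% of the 7134 probe sets tested passed (26 in all). At an unadjusted p under 0.05, the tested members numbered 2, where 10.9% of all probe sets tested fell under it. Groups did not overlap for 2 of the 4, and for 40.8% of all probe sets tested.

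**Figure D1:**
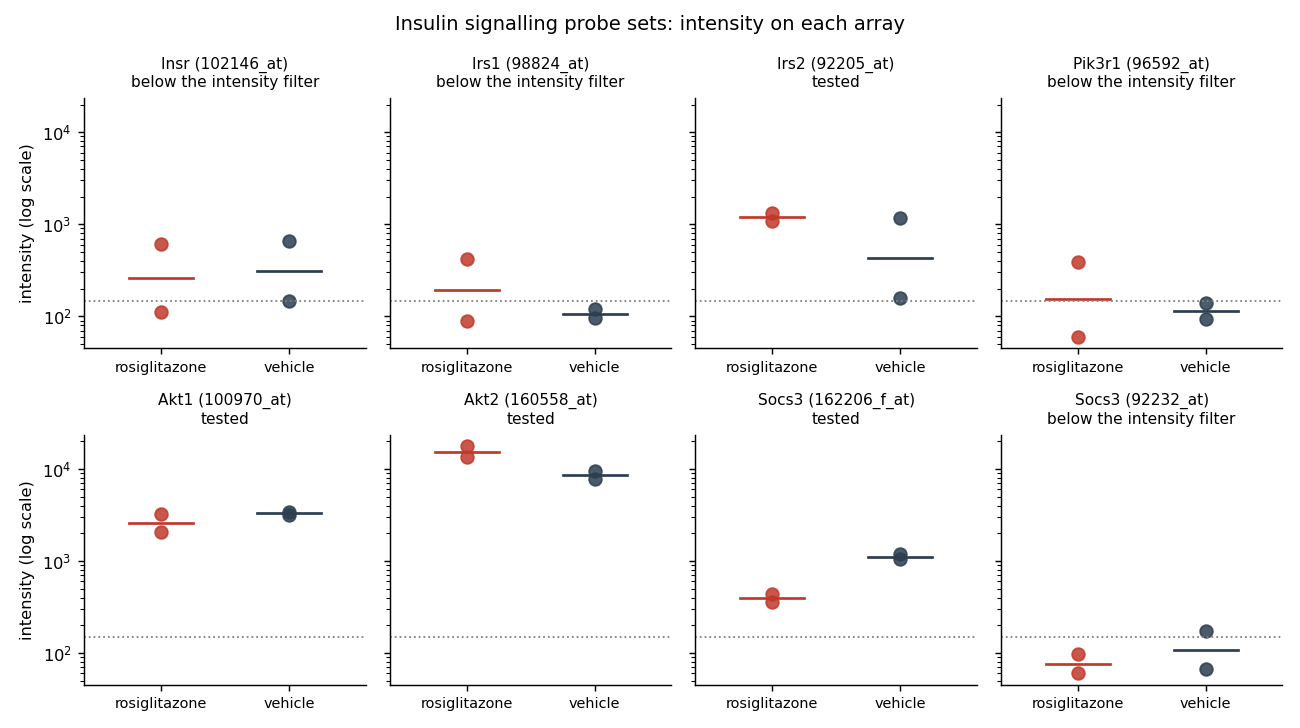
Intensity on each array (log axis) for the 8 insulin signalling probe sets, with rosiglitazone left and vehicle right in each panel. Points are single arrays, bars are geometric means of 2 arrays, and the dotted line is the floor of 148. The arrays separate by group for Akt2 and for the brighter Socs3 probe set, and not for the other 6.

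The arrays themselves were alike in scale. The median was 591 and 620 on the rosiglitazone arrays, against 648 and 635 on the vehicle arrays, and the median log2 fold change of all probe sets tested was -0.02. The correlation of log2 intensities was 0.881 within rosiglitazone and 0.892 within vehicle, against 0.855 to 0.866 across groups. These correlations run over probe sets, which are not independent replicates. Smooth muscle markers were present in all samples, with Acta2, the smooth muscle actin, at 28866 and 33031 with rosiglitazone, against 56544 and 80133 with vehicle. Fat cell markers were also present in all samples, with Cidea, a lipid droplet protein of brown adipocytes, at 240828 and 286124 with rosiglitazone, against 188712 and 199365 with vehicle. In such bulk RNA, fewer cells of a type and less RNA per cell cannot be told apart.

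The receptor gene Insr gave a signal that differed more within each group than between the groups. Its intensities were 610 and 111 on the rosiglitazone arrays, against 664 and 148 on the vehicle arrays. Each group thus had 1 array near the floor of 148, below which values were set to that number before log2 was taken, and the groups overlapped throughout. On the log2 scale the means were 8.23 ± 1.44 with rosiglitazone, against 8.29 ± 1.53 with vehicle (SD, n = 2 each). The spread within each group was far larger than the difference of -0.06 between them, so a change of either sign up to several-fold could not be detected for Insr on these arrays. With the intensity filter dropped, the 95% interval of that difference ran from -3.93 to 3.81.

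The adaptor genes Irs1 and Irs2 were measured by 1 probe set each. Irs2, the adaptor that links the receptor to AKT in liver and in pancreatic beta cells as well as in the endothelium, had intensities of 1076 and 1332 on the rosiglitazone arrays, against 1159 and 160 on the vehicle arrays. The groups overlapped, since 1 vehicle array matched the rosiglitazone arrays and the other lay near the floor. The log2 fold change was 1.48 with a standard error of 0.84 and a 95% interval from -0.42 to 3.37 (limma, adjusted p = 0.578). Vehicle replicate 4 decided this value, which was 0.05 without it and 2.90 without vehicle replicate 3. Irs1, the adaptor that predominates in muscle and fat, had intensities of 90 and 422 with rosiglitazone, against 95 and 119 with vehicle. It exceeded the floor on 1 rosiglitazone array alone, and no fold is given for it.

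Irs1 and Irs2 share a stretch of promoter sequence that insulin and feeding signals are known to act through at Irs2, where an E-box lies beside a binding site for FOXO factors. Their sequences are shown for that shared feature. Promoters were taken from RefSeq on the GRCm38.p6 build, whose reference strain is that of these mice, for 7 of the 9 members, as the 250 bases before each annotated start. The E-box letters CACGTG and the insulin response letters TGTTTTG, searched on both strands, are in capitals in the promoters of Irs1 (chr1:82291440-82291689, minus strand) and Irs2 (chr8:11008930-11009179, minus strand), printed 5′ to 3′ in the direction of the gene.
Irs1: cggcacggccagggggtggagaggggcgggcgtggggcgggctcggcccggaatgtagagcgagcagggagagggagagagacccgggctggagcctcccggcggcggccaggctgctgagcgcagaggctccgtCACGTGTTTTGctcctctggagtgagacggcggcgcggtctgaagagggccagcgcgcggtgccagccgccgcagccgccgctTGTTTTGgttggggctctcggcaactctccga
Irs2: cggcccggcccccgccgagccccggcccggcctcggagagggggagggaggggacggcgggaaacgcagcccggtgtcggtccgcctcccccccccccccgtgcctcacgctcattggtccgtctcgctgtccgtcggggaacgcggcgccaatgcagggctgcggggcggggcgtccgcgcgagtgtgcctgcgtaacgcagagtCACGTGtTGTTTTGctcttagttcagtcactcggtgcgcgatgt
In Irs1 the E-box spans bases 115 to 110 before the start and overlaps an insulin response match that begins at base 111. A second such match begins at base 32. In Irs2 the E-box spans bases 44 to 39 before the start, and the insulin response match begins at base 37, without overlap. CACGTG was found in 6.02% of 32851 RefSeq mouse promoters of this length, which include several starts for some genes, TGTTTTG in 5.56% and both in 0.295%. These matches describe the letters alone, and the intensities of Irs1 and Irs2 given above did not separate the groups.

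Pik3r1 encodes the p85α subunit that docks the lipid kinase on the adaptors. Its intensities were 60 and 388 on the rosiglitazone arrays, against 140 and 93 on the vehicle arrays. A single rosiglitazone array exceeded the floor, as for Irs1, and it was rosiglitazone replicate 2 in both cases. On the other 3 arrays Pik3r1 lay under it, and no fold is given.

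Among the AKT kinases, Akt2, the isoform that insulin acts through in fat and muscle, was brighter with rosiglitazone, and Akt1, the isoform tied to growth and survival, was not distinguished between the groups. Akt2 had intensities of 17747 and 13334 on the rosiglitazone arrays, against 9422 and 7746 on the vehicle arrays. The rosiglitazone pair thus lay wholly above the vehicle pair. The mean log2 intensity was 13.91 ± 0.29 with rosiglitazone, against 13.06 ± 0.20 with vehicle (SD, n = 2 each), a fold of 1.80 with a 95% interval from 1.26 to 2.58 before any adjustment. The log2 fold change of 0.85, standard error 0.23, had an unadjusted p of 0.00476 in limma and did not pass the adjustment (adjusted p = 0.181). It ranked 188 of 7134 by p. Over the alternatives tried, the adjusted p of Akt2 in limma ran from 0.0802 to 0.766, and the log2 fold change from 0.64 to 1.05 with 1 array left out.

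Akt1 had intensities of 3210 and 2061 with rosiglitazone, against 3432 and 3160 with vehicle. Rosiglitazone replicate 1 lay between the vehicle arrays and rosiglitazone replicate 2 lay below them, so the groups overlapped. The log2 fold change was -0.36, standard error 0.30, with a 95% interval from -1.03 to 0.32 (limma, adjusted p = 0.726). Leaving out rosiglitazone replicate 2 gave -0.04, and leaving out rosiglitazone replicate 1 gave -0.68. Whether Akt1 and Akt2 differed from each other in their response was not tested.

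**Figure D2:**
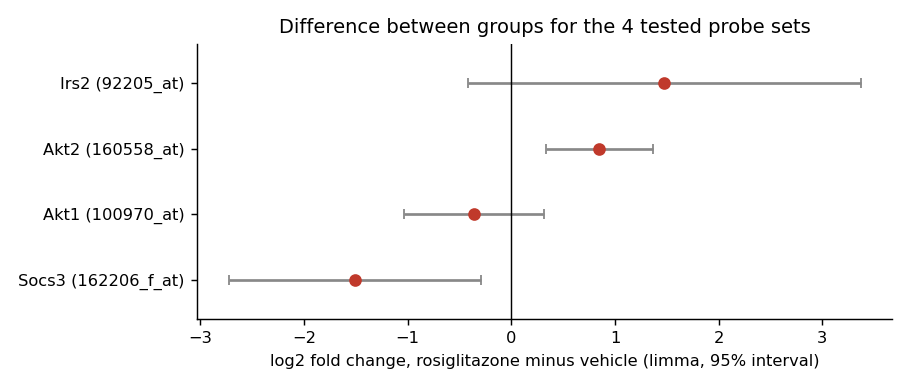
Log2 fold change, rosiglitazone minus vehicle, for the 4 tested probe sets, with points for the limma estimate and bars for its unadjusted 95% interval. The intervals of Akt2 (0.33 to 1.37) and Socs3 (-2.72 to -0.29) leave out 0, those of Irs2 and Akt1 include it, and none of the 4 passed adjustment over all probe sets.

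Most brown adipocyte markers tested lay higher on the same arrays as Akt2, and white and general adipocyte markers were split. Of 8 listed brown adipocyte markers 7 had probe sets, 9 in all, none of them listed at 0, and their summed intensity was 398564 and 433956 with rosiglitazone, against 286886 and 280709 with vehicle. Cidea gave most of that sum, and its log2 fold change of 0.44 did not pass the adjustment (limma, adjusted p = 0.553). Ucp1, the uncoupling protein that defines brown fat, had a log2 fold change of 0.98 on the probe set with its smaller p, at 97796 and 73418 with rosiglitazone, against 54981 and 33472 with vehicle. Its second tested probe set, at 15356 and 21365 with rosiglitazone, against 12313 and 14922 with vehicle, had 0.42. Of the 7 brown adipocyte probe sets tested, 6 had a log2 fold change above 0, and 1, that of the fatty acid binding protein Fabp3, passed an adjusted p of 0.05 in limma. The tested probe set below 0 was that of Dio2, with a log2 fold change of -0.33. Its intensities were 2979 and 4037 with rosiglitazone, against 4378 and 4313 with vehicle, without overlap. White and general adipocyte markers, 6 of 8 with a probe set, summed to 221550 and 246513 with rosiglitazone, against 162380 and 172221 with vehicle. Most of that sum was Adipoq, the hormone adiponectin, at 165554 and 195068 with rosiglitazone, against 125080 and 136822 with vehicle. Of the 6 probe sets tested, 3 had a log2 fold change above 0, with Lipe, the hormone-sensitive lipase, at 1.10, Cebpa, an adipocyte transcription factor, at 0.52 and Adipoq at 0.46. The other 3 lay below 0, with the fatty acid binding protein Fabp4 at -0.19, the hormone leptin (Lep) at -0.14 and resistin (Retn) at -1.51. Retn was at 2422 and 350 with rosiglitazone, against 2681 and 2552 with vehicle, so that 1 rosiglitazone array gave most of its difference. The part of fat cells in the Akt2 values was not tested.

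The 3 probe sets of other genes whose pattern over the 4 arrays was most like that of Akt2 were those of Eftud2, a splicing GTPase, Dipk1b and BC004004. Likeness was the root mean square difference of log2 intensities, each centred on its own mean, over 4 arrays and 6392 probe sets, and came to 0.04, 0.04 and 0.05. Dipk1b, for example, had intensities of 4710 and 3673 with rosiglitazone, against 2490 and 2199 with vehicle.

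Socs3, a suppressor of cytokine signalling that binds receptors and JAK kinases and also interferes with the insulin receptor and its adaptors, was measured by 2 probe sets that did not give the same picture. On the brighter one, intensities were 357 and 434 with rosiglitazone, against 1190 and 1050 with vehicle. Both rosiglitazone arrays lay below both vehicle arrays, and the 2 arrays of each group were close. The mean log2 intensity was 8.62 ± 0.20 with rosiglitazone, against 10.13 ± 0.13 with vehicle (SD, n = 2 each). The log2 fold change of -1.51, standard error 0.54, with a 95% interval from -2.72 to -0.29, had an unadjusted p of 0.0207 in limma and did not pass the adjustment (adjusted p = 0.347). It stayed between -1.65 and -1.36 with 1 array left out. The rosiglitazone arrays averaged below the filter of 414 on the log scale, so this probe set was tested only through its vehicle arrays. On the dimmer one, intensities were 60 and 98 with rosiglitazone, against 173 and 67 with vehicle, so that 3 of the 4 arrays lay under the floor and no fold is given. The name of the brighter probe set ends in f_at, which is Affymetrix's mark for probes that can match more than 1 transcript of a sequence family, so its signal is assigned to Socs3 with that reserve.

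Socs3 is transcribed in response to cytokines through STAT factors, whose binding sites have the letters TTCNNNGAA, the same on both strands. The promoters of Socs3 (chr11:117969367-117969616, minus strand) and of the most upstream of the 4 RefSeq starts of Akt2 (chr7:27591302-27591551, plus strand) are shown because these genes were the ones whose groups did not overlap. They are given 5′ to 3′ in the direction of the gene, with matches to these letters in capitals.
Socs3: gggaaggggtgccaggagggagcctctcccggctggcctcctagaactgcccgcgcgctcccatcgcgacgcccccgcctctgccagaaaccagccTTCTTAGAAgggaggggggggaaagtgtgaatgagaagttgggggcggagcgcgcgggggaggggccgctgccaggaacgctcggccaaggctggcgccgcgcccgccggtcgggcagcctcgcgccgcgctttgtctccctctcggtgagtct
Akt2: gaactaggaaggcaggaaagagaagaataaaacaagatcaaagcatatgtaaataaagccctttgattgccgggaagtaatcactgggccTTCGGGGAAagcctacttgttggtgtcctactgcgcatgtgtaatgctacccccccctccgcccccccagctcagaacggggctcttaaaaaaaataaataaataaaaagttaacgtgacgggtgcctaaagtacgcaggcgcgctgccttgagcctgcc
Each holds 1 match, from base 154 to base 146 before the start in Socs3 and from base 160 to base 152 in Akt2, and 7.02% of the 32851 promoters hold at least 1. The other listed Akt2 starts hold none. The exact letters of the element for PPAR and its partner RXR are 2 copies of AGGTCA with 1 base between them. They were found in 0.0335% of the promoters and in none (0) of the 12 promoters of members. A match this rare would be missing from nearly any 12 promoters, so its absence does not tell whether PPAR binds these genes. The single copy, AGGTCA, was found in 14% of all and, among members, in Akt1. A FOXO site, GTAAACA, searched on both strands and present in 3.17% of all, was also found in Akt1, from base 161 to base 155 before the more upstream of its 2 starts. All these matches describe the letters alone, and whether STAT factors act through the marked ones was not tested.

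Macrophage markers, and some neutrophil markers, lay lower on the same arrays as Socs3. All 8 listed macrophage markers had probe sets, 13 in all, none of them listed at 0, and their summed intensity was 24996 and 26104 with rosiglitazone, against 67590 and 72168 with vehicle. Cd14, the lipopolysaccharide co-receptor, was at 3496 and 3642 with rosiglitazone, against 27529 and 26830 with vehicle and passed the adjustment (limma, adjusted p = 1.45e-04). It was the only 1 of 10 tested macrophage probe sets to pass, and it held the largest share of the vehicle sum. All 10 lay below 0, the second one of Csf1r at -0.02 with overlap. Groups did not overlap for 90% of the 10, beside 40.8% of all probe sets tested. The 8 neutrophil markers, on 9 probe sets, summed to 6333 and 6963 with rosiglitazone, against 127099 and 193689 with vehicle, and S100a8 and S100a9 gave most of the sum in vehicle. The groups did not overlap for 3 of the 7 neutrophil probe sets tested (42.9%, beside 40.8% of all probe sets tested), those of S100a8, S100a9 and Camp, an antimicrobial peptide. The other 4 overlapped, with the granule enzymes Elane at -0.47 and Mpo at -0.52, the granule protein Ltf at 0.12 and the chemokine receptor Cxcr2 at -0.09. S100a8, a calcium-binding protein of neutrophils and monocytes, was at 755 and 1883 with rosiglitazone, against 76047 and 131937 with vehicle. Smooth muscle markers were lower too, with sums of 56509 and 63306 with rosiglitazone, against 116966 and 140765 with vehicle. Lower values were not limited to these lists. Below 0 lay 9 of 10 tested fibroblast probe sets, 4 of 5 for lymphocytes, 3 of 5 for erythrocytes and 5 of 8 for endothelium. All 4 tested for skeletal muscle lay above 0. Of all 7134 probe sets tested, 3705 lay below 0. The part of any of these cells in the Socs3 values was not tested.

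**Figure D3:**
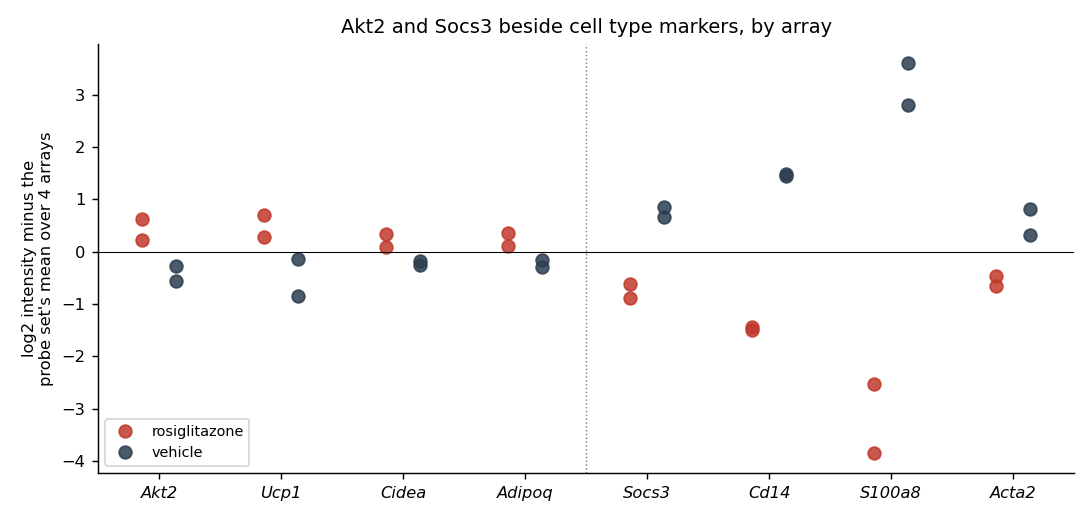
Log2 intensity on each array, centred on the probe set's mean over 4 arrays, for Akt2 beside the fat cell markers Ucp1 (the probe set with its smaller p), Cidea and Adipoq, and for Socs3 (brighter probe set) beside Cd14, S100a8 and the smooth muscle actin Acta2. Red points (rosiglitazone) lie above dark points (vehicle) in the left block and below them in the right block. Only some of the listed markers are drawn. Of the tested fat cell markers not drawn, Dio2 (-0.33), Fabp4 (-0.19), Lep (-0.14) and Retn (-1.51) had log2 fold changes below 0. Those of Fabp3, Cox8b, Lipe and Cebpa lay above it. The neutrophil marker Ltf, also not drawn, had 0.12.

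The wider insulin pathway was read from 6 lists with 103 other genes, of which 70 had a probe set and 61 at least 1 tested probe set. On the 73 probe sets tested, 0 passed an adjusted p of 0.05 in limma, 37 had a log2 fold change above 0 and 36 below it, and the median was 0.05, beside -0.02 for all probe sets tested. At an unadjusted p under 0.05 there were 6 higher (8.22%) and 3 lower (4.11%), where 5.12% and 5.76% of all probe sets tested were. Groups did not overlap for 39.7% of them, near the 40.8% of all.

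**Figure D4:**
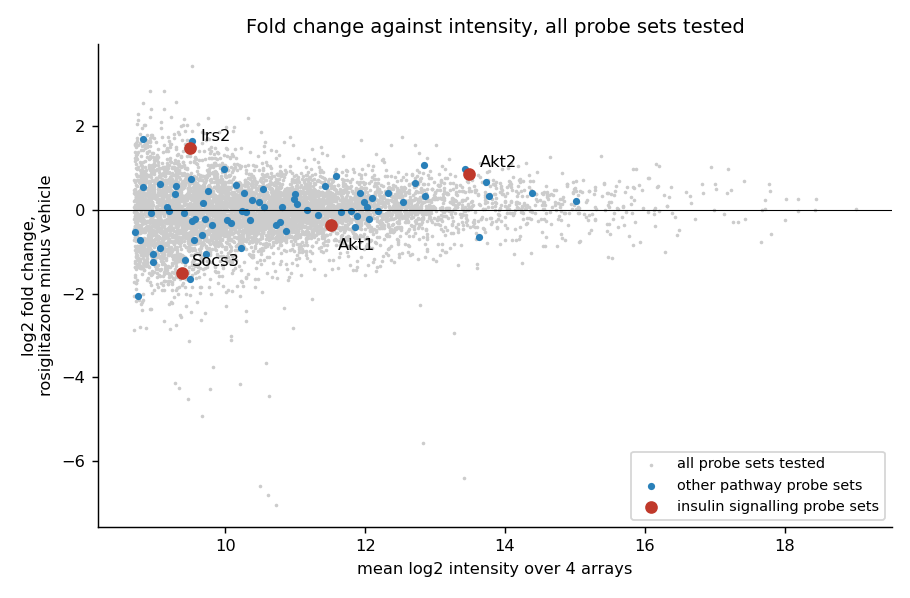
Log2 fold change, rosiglitazone minus vehicle, against mean log2 intensity over 4 arrays for the 7134 probe sets tested (grey), the 73 other pathway probe sets (blue) and the 4 tested insulin signalling probe sets (red, named). Most pathway probe sets lie within the grey cloud around 0, and Irs2 and Socs3 sit where the cloud is widest.

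Substrates and outputs of AKT held 4 of those 6 higher probe sets. This list had 17 probe sets tested for 15 genes and a median log2 fold change of 0.18. The 4 were 23.5% of its tested probe sets, where 5.12% of all probe sets tested were higher at that p. Groups did not overlap for 47.1% of the list, beside 40.8% of all. The list as a whole was not tested. Srebf1, the transcription factor through which insulin drives lipid synthesis, had intensities of 17619 and 13390 with rosiglitazone, against 7579 and 8181 with vehicle, a log2 fold change of 0.96 (limma, adjusted p = 0.115). Rps6kb2, an S6 kinase, had 1387 and 1217 with rosiglitazone, against 477 and 364 with vehicle, a log2 fold change of 1.64 (limma, adjusted p = 0.249). In both genes the rosiglitazone arrays lay above the vehicle arrays. Gys1, the glycogen synthase of muscle and most other tissues, had a log2 fold change of 0.64, from intensities of 9981 and 7040 with rosiglitazone, against 4971 and 5805 with vehicle. Mtor, the kinase of the growth pathway below AKT, had 0.79 on the probe set with its smaller p and -0.12 on its other tested probe set, where the groups overlapped. Slc2a4, the insulin-responsive glucose transporter GLUT4, is a well known output of the pathway and was named after its values were seen. It had intensities of 4106 and 4439 with rosiglitazone, against 4679 and 3516 with vehicle, with overlap.

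Target genes of FOXO factors, which insulin restrains through AKT, lay on both sides of 0, with 7 of 15 probe sets above it and a median log2 fold change of -0.04. Txnip, an inhibitor of thioredoxin and of glucose uptake, had intensities of 11697 and 9596 with rosiglitazone, against 4417 and 5849 with vehicle, a log2 fold change of 1.06 (limma, adjusted p = 0.109). Its second probe set had 0.19 with overlapping groups. Pck1, a carboxykinase in the synthesis of glyceride glycerol in fat and of glucose in liver, had 17647 and 16350 with rosiglitazone, against 12321 and 9407 with vehicle, a log2 fold change of 0.66. It is also a well known PPARγ target in adipocytes. In the other direction, Gadd45a, a stress response gene, had 330 and 501 with rosiglitazone, against 1400 and 1161 with vehicle, a log2 fold change of -1.65. Igfbp1, a binding protein for insulin-like growth factors, had 160 and 274 with rosiglitazone, against 995 and 776 with vehicle, a log2 fold change of -2.07, and its second probe set lay below the filter. None of these 4 passed the adjustment in limma, with adjusted p from 0.109 to 0.371. For Gadd45a and Igfbp1 the rosiglitazone arrays averaged below the filter, so both were tested only through their vehicle arrays. The lower Igfbp1 value, 160, lay near the floor of 148.

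**Figure D5:**
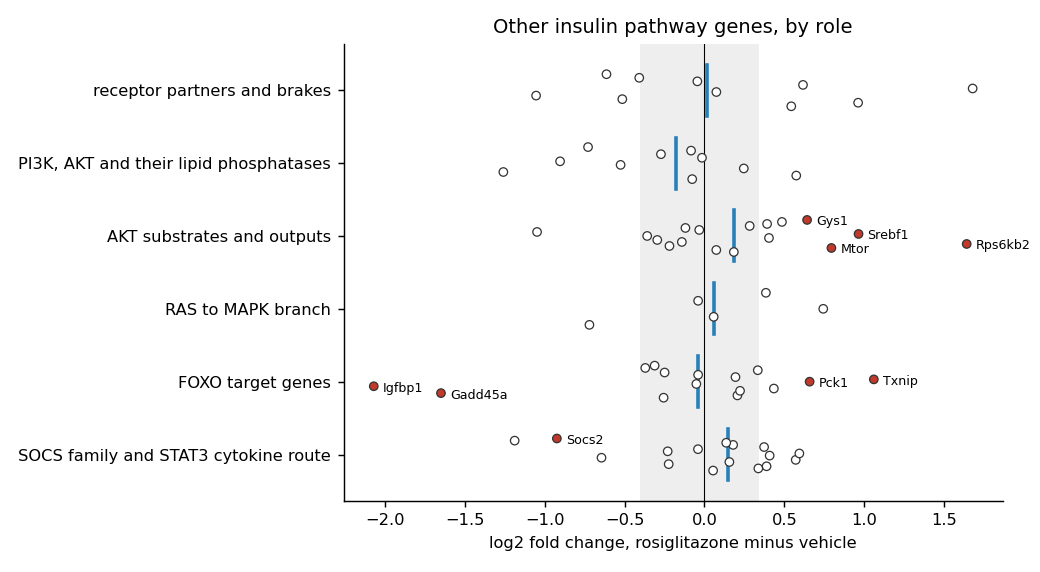
Log2 fold change, rosiglitazone minus vehicle, of each tested probe set in the 6 lists of other insulin pathway genes. Filled, named points had an unadjusted p under 0.05 in limma, blue bars are list medians, and the grey band is the middle range of all probe sets tested, from -0.40 to 0.33. The list medians run from -0.18 to 0.18 and all lie inside the band.

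Partners and brakes of the receptor had 10 probe sets tested, 5 above 0 and 5 below, and their median log2 fold change was 0.01. Grb10, an adaptor that inhibits the insulin receptor, had intensities of 623 and 1058 with rosiglitazone, against 76 and 435 with vehicle, a log2 fold change of 1.68 with 1 vehicle array under the floor (limma, adjusted p = 0.51). Its vehicle arrays averaged below the filter, so it was tested only through its rosiglitazone arrays. The other 2 probe sets of Grb10 were below the filter. Sh2b1, an adaptor that enhances receptor signalling, had a log2 fold change of 0.96. Igf1r, the receptor closest to Insr in sequence, had -0.51, and Ptpn1, the phosphatase PTP1B that switches the insulin receptor off, had -0.41. For all 4 the groups did not overlap, as for 5 of the list's 10 probe sets (50%, beside 40.8% of all probe sets tested), and none of the 10 had an unadjusted p under 0.05 in limma. Without 1 vehicle array the log2 fold change of Grb10 was 0.90 and that of Sh2b1 was 0.21.

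The list of PI3K, AKT partners and lipid phosphatases had 10 probe sets tested, 2 of them above 0, with a median of -0.18. Its smallest p was that of Inppl1, the lipid phosphatase SHIP2 that opposes PI3K, at 2629 and 4309 with rosiglitazone, against 2217 and 2305 with vehicle, a log2 fold change of 0.57 (limma, adjusted p = 0.559). The catalytic subunit gene Pik3ca had -1.26 on the probe set with its smaller p, with 1 rosiglitazone array under the floor, and -0.08 on its other tested probe set. Without that array the first was at -0.12. Inpp5d, the leukocyte phosphatase SHIP1, was at 50 and 1031 with rosiglitazone, against 697 and 766 with vehicle. Its log2 fold change of -0.90 rested on the 1 rosiglitazone array under the floor and was 0.50 without it, and its second probe set, below the filter, was at 122 and 615 with rosiglitazone, against 134 and 277 with vehicle. Ppp2ca, the catalytic subunit of protein phosphatase 2A, had -0.73, and was tested only through its vehicle arrays, as its rosiglitazone arrays averaged below the filter. In the RAS to MAPK branch 3 of 5 probe sets lay above 0, with Map2k1 at 0.74, Elk1 at 0.38 and Map2k2 at 0.06, and none had an unadjusted p under 0.05 in limma. Nras had a log2 fold change of -0.72 on the probe set with its smaller p, at 719 and 476 with rosiglitazone, against 1626 and 571 with vehicle, where 1 vehicle array stood high and without it the value was 0.03. Its second tested probe set had -0.04, and the groups overlapped on both.

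The family of Socs3 and the cytokine route to STAT3 had 16 probe sets tested, 10 above 0 and 6 below, and their median log2 fold change was 0.15. Socs2, a suppressor best known for growth hormone signalling, had intensities of 907 and 830 with rosiglitazone, against 2055 and 1318 with vehicle, a log2 fold change of -0.92 (limma, adjusted p = 0.446). The groups did not overlap, and it was the only probe set of this list with an unadjusted p under 0.05 in limma. Pim1, a kinase gene that STAT factors induce, had -0.64 on its brighter probe set, where the groups overlapped at 13827 and 7397 with rosiglitazone, against 20666 and 12090 with vehicle. Its dimmer probe set had -1.19, at 220 and 943 with rosiglitazone, against 1028 and 1047 with vehicle, and -0.14 without the lower rosiglitazone array. Stat5a, a transcription factor activated by growth hormone and prolactin, had 0.34 on the probe set with its smaller p. Socs1, named after its values were seen, had intensities of 1429 and 1371 with rosiglitazone, against 918 and 937 with vehicle, a log2 fold change of 0.59 opposite in sign to those of Socs3 and Socs2. Il6, a cytokine that induces Socs3, was likewise named after its values were seen and was dim, at 36 and 35 with rosiglitazone, against 492 and 93 with vehicle, and below the filter.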

How the data were processed

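RNA was hybridised to Affymetrix MG-U74Av2 arrays, the platform named in the probe table. The authors deposited 1 intensity per probe set and array on a linear scale. The software and background correction are not given in the sources used here. Trimmed means are equal across arrays and array medians differed by at most 0.13 on the log2 scale, under the limit of 0.2, so no further scaling was applied. From the deposited intensities, values under 148 (20th percentile of all values) were set to 148, log2 was taken, and 7134 of 12422 non-control probe sets with a mean at or above 414 (40th percentile) were tested with limma 3.58.1 in R 4.3.3 (lmFit, then eBayes with its trend option). Tests were two-sided, p-values were adjusted by Benjamini-Hochberg over all 7134, and 0.05 was the threshold. The model had 2 residual degrees of freedom. An exact permutation of the 4 arrays cannot give a p under 0.333. Symbols were looked up by gene identifier for 10817 of 10833 single-symbol probe sets, and 0 changed. The procedure was tried on simulated data with planted changes larger than those of the tested members, so its power at their size was not tested. The members and lists were chosen with earlier results of these data known. Named were all member probe sets, the 4 of each list with the smallest unadjusted p, the 3 most like the member with the smallest p, and others where stated. Alternatives changed the floor, the filter, the scaling between arrays, the intensity trend and the arrays used. The number of arrays limits the precision, and no detection calls were in the table used here.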

Additional observations from a re-analysis of the deposited data

How the results depend on the processing

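The count of insulin signalling probe sets past an adjusted p of 0.05 in limma was 0 under all 11 alternatives, as was that of the other pathway probe sets. The log2 fold changes of Irs2, Akt1, Akt2 and Socs3 (brighter probe set) kept their sign under all 11, from -1.65 to -1.36 for Socs3 and from 0.64 to 1.05 for Akt2 with 1 array left out. That of Irs2 was 0.79 with the floor at the 40th percentile, since that raises its 1 dim vehicle array. Over all genes the count of 26 probe sets was 17 with no floor, 17 with each array centred on its median, 7 without the intensity trend, and 0 with the floor at the 40th percentile or with no filter, both of which let all 12422 probe sets through. It ranged from 1 to 78 with 1 array left out, where the lone array of a group was assumed to vary like those of the other group. The cause of these shifts was not tested beyond the number of probe sets tested. Irs1, Pik3r1 and the second Socs3 probe set lie too near the floor, and Insr varied too much within each group, for a difference to be measured. No paired analysis was possible because the labels number the rosiglitazone arrays 1 and 2 and the vehicle arrays 3 and 4.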
